A study of Drosophila melanogaster with 9 samples.

Results

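Secreted digestive enzymes of the fly were followed here across 9 whole-fly libraries: 26 serine proteases, 5 lipases and 5 lysozymes, 36 genes of 13140. The 36 were taken by symbol from the deposited count tables. They are 15 Jonah genes (symbols that begin with Jon and a digit), 8 trypsins (symbols that end in Try), the chymotrypsin-like genes Ser6, Ser8 and yip7, the lipases Lip1 to Lip4 and mag, and the lysozymes LysB, LysD, LysE, LysP and LysX. The choice used names, not measured values. Each library came from the lysate of whole adult flies, Drosophila melanogaster with a Canton S genetic background; all were 10 to 11 days old and had a wild-type genotype. WT flies (3 libraries) had neither an obese grandparent nor a heterozygous parent. GP/P flies (3 libraries) descended from an obese grandfather of the AkhR mutant line through a heterozygous F1 father, and GP/M flies (3 libraries) through a heterozygous F1 mother. AkhR is the receptor of adipokinetic hormone, the fly's fat-mobilising hormone, and the flies that were sequenced carried no AkhR mutation themselves. The comparisons ask whether descent from an obese grandfather left a difference in transcript levels, and whether it mattered which F1 parent transmitted it. The design ties 1 library of each group to each experiment, and the libraries that share a replicate number form what is called a set below. Totals were 21777434 to 28166388 counts per library. The labels do not give the sex of the flies; 6 male accessory gland genes summed to 2638 to 3002 CPM (normalised counts scaled to library size) in the 9 libraries.

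Flies digest food in the lumen of the midgut. Trypsins cut proteins after basic residues and chymotrypsin-like enzymes, to which the Jonah proteins belong, after large hydrophobic ones. Both are made by enterocytes as inactive precursors and secreted. The magro lipase (mag) splits dietary fat in the gut lumen, and digestive lysozymes break the cell walls of the bacteria on which flies feed. Many of these genes sit in tandem arrays that arose by duplication. In the Ensembl annotation of BDGP6, used here only for gene order and exon length, Jon25Bi to Jon25Biii, Jon65Ai to Jon65Aiv with yip7 close by, Jon99Ci to Jon99Ciii, Jon99Fi with Jon99Fii, and LysB to LysP are such groups. The trypsin genes alphaTry, betaTry, thetaTry, etaTry and zetaTry also lie side by side or nearly so, as do kappaTry and lambdaTry. The sources used here do not state how reads that match several copies were counted, which makes the values of close copies uncertain. In whole-fly RNA, fewer gut cells and less RNA per cell cannot be told apart.

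The enzymes covered a wide range of levels, and a few genes made up most of the transcripts. Together the 36 genes held 0.752% to 0.94% of all counts of a library. The chymotrypsin-like gene yip7 held 15.6% of the summed counts of the 36, the Jonah gene Jon65Aiv 14.6%, the trypsin alphaTry 12.8% and the Jonah gene Jon65Aiii 10.6%. These 4 together held 53.5%. As levels per kilobase of exon (mean normalised CPM per kb of 9 libraries), yip7 was at 1408, Jon65Aiv at 1319, alphaTry at 1223 and Jon65Aiii at 987. The next Jonah genes were Jon25Bi at 673 CPM per kb, Jon25Biii at 645, Jon99Ci at 528, Jon25Bii at 464, Jon74E at 440.0 and Jon99Ciii at 268. The other 5 Jonah genes that passed the filter on low counts lay between 8.26 CPM per kb (Jon99Cii) and 64.8 (Jon99Fii).

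Outside the proteases the highest levels were those of LysP, with 198 CPM per kb, and mag, with 156. Behind alphaTry, the trypsins kappaTry (92.5 CPM per kb), lambdaTry (88.9) and thetaTry (70.6) lay close together, and betaTry was at 1.12. How reads were divided between alphaTry and betaTry, which lie near each other, is not known. The lowest tested level was that of Lip1, with 0.224 CPM per kb and 5 to 12 counts per library. Jon66Ci had 4 to 7 counts in 8 libraries and 32 in GP/M 3, did not pass the filter and was not tested, which leaves 35 genes. Levels of most of these genes varied little between the 9 libraries. The coefficient of variation was 3.62% for thetaTry, 3.72% for Jon99Ci and 3.80% for lambdaTry, and 24.9% for Lip3, 25.1% for LysB and 33.1% for LysX.

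None of the 35 tested enzyme genes passed an adjusted p of 0.05 for either line against WT, for the 2 lines against each other, or for both lines together against WT, by edgeR's quasi-likelihood test over 12913 genes. The background was the same in each of the 4 comparisons, with 0% of all genes called. DESeq2 and limma-voom called 0 of the enzyme genes as well. At an unadjusted p under 0.05 there was 1 enzyme gene in each comparison, against 2.59% of all genes for GP/P, 1.53% for GP/M, 1.70% between the lines and 2.01% for both together. With the set as a block the same rule gave 3, 3, 1 and 5 enzyme genes, against 6.85%, 3.50%, 4.58% and 5.07% of all genes. The median log2 fold change of the 35 genes was -0.001 for GP/P against WT and 0.020 for GP/M against WT, beside 0.003 and 0.002 for all genes tested. The 95% interval of the fold change lay within 1.5-fold of no difference for 29 of 35 genes in GP/P and for 27 of 35 in GP/M. With the set as a block these counts were 31 and 32. Summed over the 36 genes, the mean CPM of the 3 libraries of a group was 8179 ± 1024 (SD, n = 3) in WT, 8222 ± 732 (SD, n = 3) in GP/M and 8152 ± 449 (SD, n = 3) in GP/P. Both lines share the WT libraries as controls, so their values are not independent of each other. The p-values set each difference against the spread between these libraries. In the fit without the block that spread includes differences between the sets.

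The trypsins lay close to WT in both lines. alphaTry, the trypsin with the highest level as counted here, was at 1221, 1003 and 1008 CPM in WT 1 to 3, at 1097, 1022 and 992 in GP/P and at 1128, 1023 and 969 in GP/M. Library 1 was the highest of each group, and the groups overlapped. The 95% interval of its fold change was 0.85 to 1.09 in GP/P and 0.86 to 1.09 in GP/M. kappaTry, the trypsin with the smallest p in GP/M against WT, had 80.0, 87.4 and 87.4 CPM in WT, 86.9, 85.6 and 88.4 in GP/P, and 83.1, 89.9 and 91.2 in GP/M. Its 3 groups overlapped, and its log2 fold change in GP/M was 0.05 ± 0.05 (SE; unadjusted p = 0.338, edgeR). lambdaTry ranged from 80.0 to 89.9 CPM over the 9 libraries and thetaTry from 70.6 to 78.2. betaTry had the widest interval of the trypsins, 0.49-fold to 1.18-fold in GP/P, on 16 to 37 counts per library.

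Among the Jonah proteases the 3 highest genes were flat between groups. Jon65Aiv was at 1454, 1078 and 1005 CPM in WT, at 1337, 1091 and 1132 in GP/P and at 1434, 1076 and 1120.1 in GP/M. Jon65Aiii, its neighbour in the array, was at 1100.0, 784 and 738 CPM in WT, at 947, 791 and 814 in GP/P and at 993, 775 and 828 in GP/M. In each group library 1 of these 2 genes was the highest by a wide margin. Jon25Bi had 642, 481 and 600.3 CPM in WT, 649.8, 546 and 545 in GP/P, and 673, 545 and 561 in GP/M. Mean differences from WT were small beside that spread: the log2 fold changes of Jon65Aiv were 0.01 in GP/P (95% interval of the fold change 0.77 to 1.31) and 0.04 in GP/M (0.79 to 1.34). With the set as a block its intervals were narrower, 0.95 to 1.08 in GP/P and 0.97 to 1.10 in GP/M.

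The tandem pair Jon99Fi and Jon99Fii held the smallest p-values of the Jonah class. Jon99Fi was at 8.63, 6.61 and 6.40 CPM in WT, at 8.35, 6.92 and 7.63 in GP/P and at 9.86, 7.93 and 9.72 in GP/M. GP/M was higher than WT within each of the 3 sets, while the ranges of the 2 groups overlapped through WT 1. The log2 fold change in GP/M was 0.34 ± 0.13 (SE), 1.27-fold, with an unadjusted p of 0.0172 and an adjusted p of 1 (edgeR). Jon99Fii had 62.1, 52.6 and 49.9 CPM in WT, 66.5, 59.4 and 58.2 in GP/P, and 68.8, 56.9 and 58.1 in GP/M. It was above WT in both lines within 3 of 3 sets, the 1 gene of 35 for which this held, against 3.56% of all genes. Its log2 fold change was 0.16 ± 0.09 in each line (SE; unadjusted p = 0.114 in GP/P and 0.116 in GP/M, adjusted p = 1, edgeR). With the set as a block the unadjusted p for both lines together was 4.29e-04 and the adjusted p 0.837 (edgeR). In the authors' deposited table Jon99Fii had p-values of 0.0345 for GP/P and 0.0421 for GP/M, with an adjusted p of 1 in both; no other enzyme gene had a deposited p under 0.05 in these comparisons.

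Of the other chymotrypsin-like genes, Ser6 was the 1 gene of 35 that was lower than WT in both lines within 3 of 3 sets (background 3.83%). It was at 12.2, 12.8 and 12.0 CPM in WT, at 11.2, 11.4 and 10.1 in GP/P and at 11.8, 11.2 and 11.8 in GP/M. All 6 libraries of the descent lines lay below the lowest WT library. All GP/P libraries lay below all WT libraries for 1 of 35 enzyme genes, Ser6, against 4.41% of all genes, and the same held for 1 of 35, again Ser6, in GP/M against 2.53%. The log2 fold change of Ser6 was -0.19 ± 0.07 in GP/P (SE; 0.88-fold, unadjusted p = 0.0259) and -0.09 ± 0.07 in GP/M (unadjusted p = 0.227), with an adjusted p of 1 in both by edgeR. yip7 was at 1592, 1117 and 1115 CPM in WT, at 1427, 1160.2 and 1230.4 in GP/P, and at 1491, 1122 and 1199.9 in GP/M. Its 3 group means were 1274, 1272 and 1271 CPM, and library 1 stood above the other 2 in each group. Ser8 ranged from 28.3 to 38.8 CPM with overlapping groups.

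Jon25Bii, a Jonah gene, was the 1 gene of 35 with all GP/P libraries above all WT libraries (background 4.07%). No enzyme gene had all GP/M libraries above all WT libraries (2.37% of all genes did), or all GP/P libraries above (3.68%) or below (3.24%) all GP/M libraries. The values of Jon25Bii were 421, 348 and 416 CPM in WT, 433, 424 and 424 in GP/P, and 461, 406 and 403 in GP/M. GP/P 2 and GP/P 3 exceeded WT 1 by a few CPM, and the WT libraries spread far more than the GP/P libraries. The log2 fold change in GP/P was 0.11 ± 0.07 (SE; unadjusted p = 0.144, adjusted p = 1, edgeR).

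**Figure D1:**
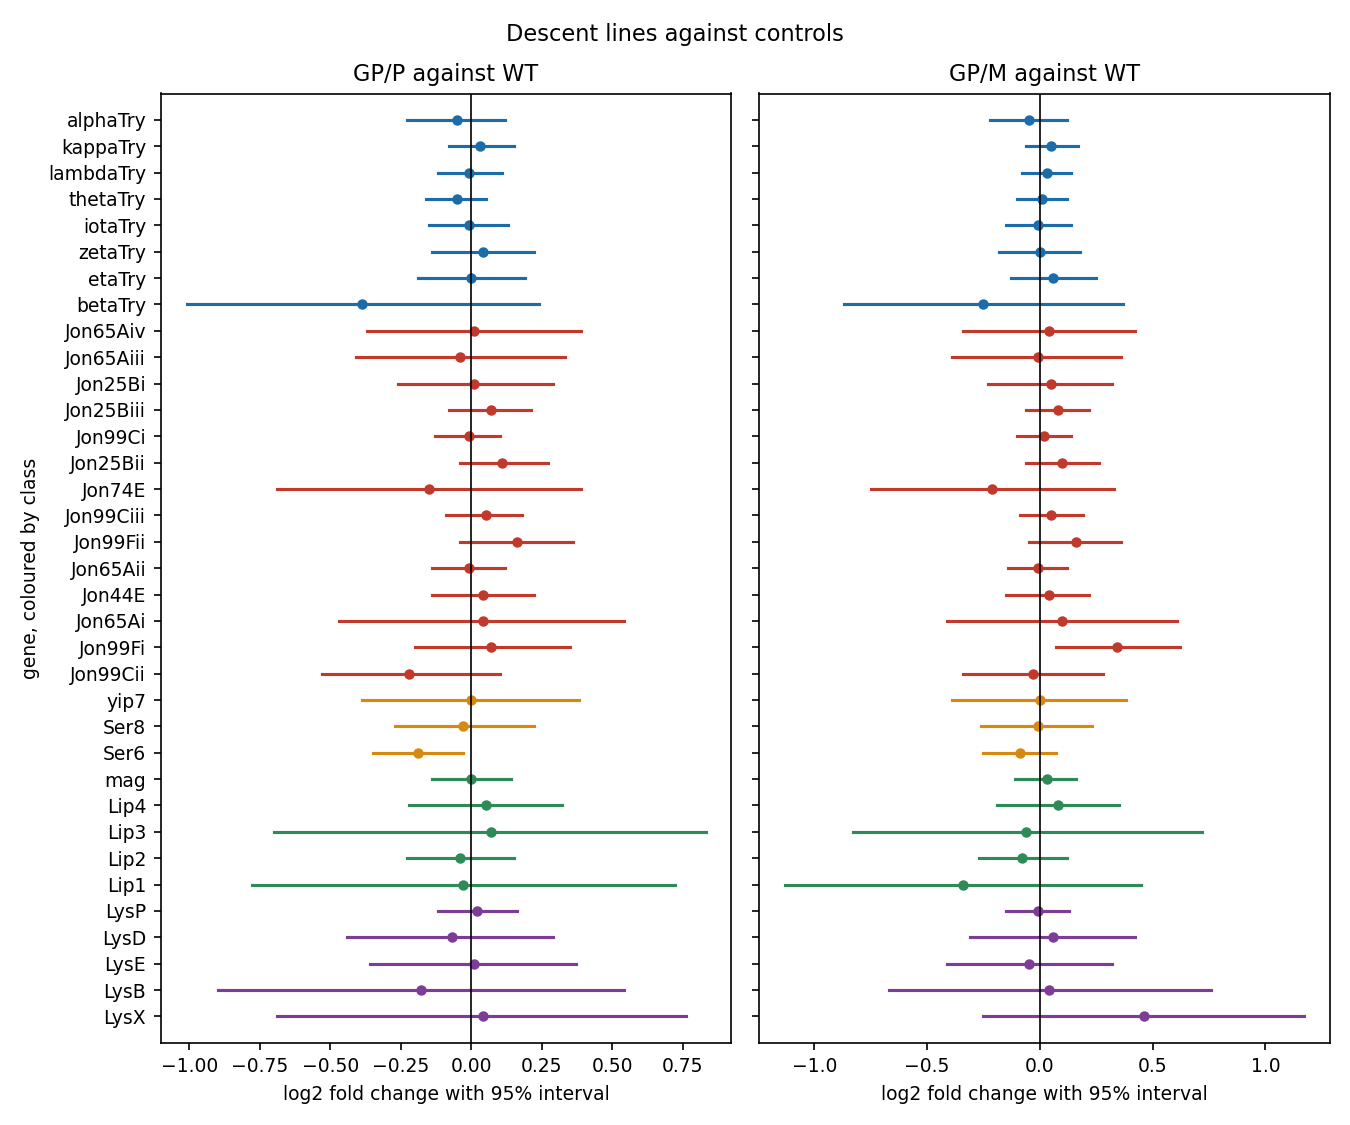
Log2 fold change of each of the 35 tested genes with its 95% interval (horizontal axis, scaled separately in the 2 panels) for GP/P against WT and GP/M against WT, coloured by class. The intervals are from the fit without the set. All but 1 interval in each panel cross 0: those of Ser6 in GP/P and Jon99Fi in GP/M do not, and neither gene passed an adjusted p of 0.05. With the set as a block (not drawn), those of Jon25Bii, Jon99Fii and Ser6 in GP/P did not cross 0. In GP/M those of Jon25Biii, Jon99Fi and Jon99Fii did not, and again no gene passed.

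Lipase transcripts did not pass the test in either line. mag was at 237, 226 and 222 CPM in WT, at 212, 227 and 245 in GP/P and at 239.7, 244 and 213 in GP/M. The 3 groups overlapped, and the 95% interval of its fold change was 0.91 to 1.10 in GP/P and 0.92 to 1.12 in GP/M. Lip4 had 47.8, 54.5 and 64.4 CPM in WT, 50.6, 59.0 and 62.6 in GP/P, and 51.8, 64.2 and 60.6 in GP/M. Lip3 had 8.55, 16.2 and 21.6 CPM in WT, 14.3, 14.3 and 19.4 in GP/P, and between 12.1 and 17.1 in GP/M. Both genes had their lowest library of each group in set 1 (for Lip3 in GP/P jointly with set 2), and their groups overlapped. Lip2 ranged from 12.1 to 15.7 CPM, and Lip1 had the widest interval of the lipases in GP/M, 0.46-fold to 1.36-fold.

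The largest fitted difference of the 35 genes in the comparisons of the groups was that of the lysozyme LysX, and it came from 1 library. LysX was at 10.5, 10.9 and 9.62 CPM in WT, at 11.8, 10.1 and 9.99 in GP/P and at 10.1, 10.6 and 21.9 in GP/M. GP/M 3 held 561 counts, and the other 8 libraries 209 to 279. The log2 fold change in GP/M was 0.46 ± 0.30 (SE; unadjusted p = 0.169, edgeR), and without GP/M 3 it was -0.006. GP/M 3 was also the library in which Jon66Ci stood apart. LysP, the lysozyme with the highest level, had 119, 131 and 114 CPM in WT, 117, 129 and 124 in GP/P, and 122, 128 and 112 in GP/M. Its groups overlapped, and its fold change had a 95% interval of 0.92 to 1.12 in GP/P and 0.90 to 1.09 in GP/M.

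The sets, in contrast, differed in many of these enzymes. A test of the set in a fit with group and set called 13 of 35 genes, 37.1%, against a background of 15.7% of all genes (edgeR's quasi-likelihood test, adjusted p under 0.05). An unadjusted p under 0.05 was reached by 18 of 35, against 30.4% of all genes. Highly expressed genes were called more often in general: the share was 16.1% of all genes between 10 and 100 CPM, 34.7% between 100 and 1000 CPM, and 42.1% above 1000 CPM. Of the enzymes, 6 of 19, 4 of 9 and 3 of 3 were called in these ranges. By class, 7 of 14 Jonah genes, 2 of 3 other chymotrypsin-like genes, 1 of 8 trypsins, 1 of 5 lipases and 2 of 5 lysozymes were called. Each set holds 1 library of every group, so these are not differences of descent.

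**Figure D2:**
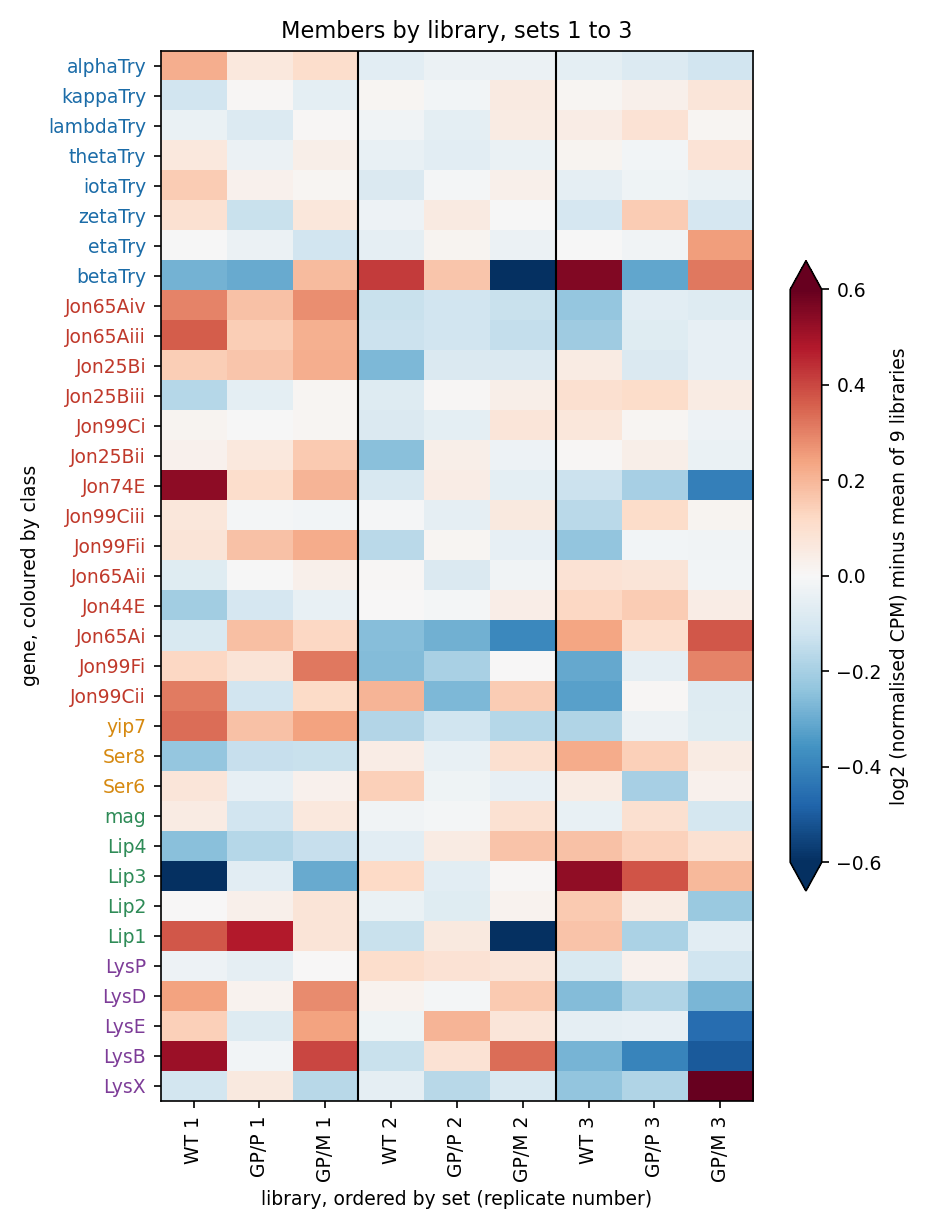
Log2 of normalised CPM minus the mean of the 9 libraries (colour scale, cut at -0.6 and 0.6) for the 35 tested genes in rows by class; the 9 libraries in columns are ordered by set, with lines between sets. yip7, Jon65Aiv, Jon65Aiii and alphaTry are above their mean in the 3 libraries of set 1, and Ser8 and Lip4 are below it there.

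The most abundant proteases were high in set 1. yip7 was 1503 ± 83.1 CPM in set 1, 1133 ± 23.7 in set 2 and 1182 ± 59.7 in set 3 (SD, n = 3 each). Jon65Aiv was 1408 ± 62.4, 1082 ± 7.91 and 1086 ± 70.1 CPM in the same order. For both genes every set 1 library lay above every library of the other sets. Over all enzyme genes, every set 1 library lay above every set 2 library for 11 of 35 and below for 5 (8.92% and 10.4% of all genes), and above every set 3 library for 10 and below for 7 (17.0% and 18.4%). Set 2 lay above set 3 for 5 and below for 5 (14.0% and 14.7%). The log2 fold changes of yip7 were -0.41 ± 0.04 in set 2 and -0.35 ± 0.04 in set 3 against set 1 (SE; adjusted p = 1.04e-04 and 1.88e-04, edgeR), and those of Jon65Aiv -0.38 ± 0.04 in both (adjusted p = 1.12e-04 and 8.42e-05). Jon65Aiii fell with them, by 0.37 and 0.35 on the log2 scale (adjusted p = 0.0195 and 0.00569, edgeR). alphaTry was 1149 ± 64.3 CPM in set 1, 1016 ± 11.2 in set 2 and 990.1 ± 19.6 in set 3, with log2 fold changes of -0.18 and -0.21 (adjusted p = 0.00995 and 5.89e-04, edgeR). The sum over the 36 genes was 9028 ± 351 CPM in set 1, 7711 ± 171 in set 2 and 7814 ± 165 in set 3.

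Genes of 1 array did not all move together. In the Jon65A array Jon65Ai was at 22.7, 27.4 and 26.3 CPM in set 1 (WT, GP/P and GP/M), 20.2, 19.8 and 18.5 in set 2, and 28.5, 25.9 and 31.3 in set 3. All set 2 libraries were below all others. Its log2 fold changes were -0.38 ± 0.08 for set 2 against set 1 (SE; adjusted p = 0.0259, edgeR) and 0.54 ± 0.08 for set 3 against set 2 (adjusted p = 0.00416). Jon65Aii, between Jon65Ai and Jon65Aiii, stayed between 46.0 and 52.0 CPM over the 9 libraries (set effect adjusted p = 0.439, edgeR). In the Jon25B array Jon25Bi was 655 ± 16.1 CPM in set 1, 524 ± 37.0 in set 2 and 569 ± 28.6 in set 3, and lower in both later-numbered sets by the test (log2 -0.32 and -0.20, adjusted p = 0.00494 and 0.0149, edgeR). Jon25Biii was 507 ± 31.4 CPM in set 1 and 565 ± 12.5 in set 3, higher in set 3 (log2 0.16 ± 0.04, adjusted p = 0.00716, edgeR). The difference between the 2 genes of that array was not itself tested. Counted as 1 feature, the Jon25B genes had a log2 fold change of -0.15 in set 2 and -0.05 in set 3 against set 1 and did not pass in either (adjusted p = 0.0619 and 0.466, edgeR). The 3 genes of the Jon99C array were not called, with set effect adjusted p-values of 0.733, 0.437 and 0.963 for Jon99Ci, Jon99Cii and Jon99Ciii (edgeR).

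Other proteases went down or up from set 1. Jon99Fii was 65.8 ± 3.44 CPM in set 1, 56.3 ± 3.44 in set 2 and 55.4 ± 4.76 in set 3 (log2 -0.23 and -0.25, adjusted p = 0.00649 and 7.60e-04, edgeR). Its neighbour Jon99Fi was 8.95 ± 0.801, 7.15 ± 0.689 and 7.92 ± 1.68 CPM and missed the threshold (set effect adjusted p = 0.0534, edgeR). Ser8, a chymotrypsin-like gene, was lowest in set 1, with 28.3, 30.2 and 30.3 CPM, against 34.3, 32.2 and 35.5 in set 2 and 38.8, 36.7 and 34.4 in set 3. It rose by the test in set 3 against set 1 (log2 0.31 ± 0.06, adjusted p = 0.00135, edgeR), as did Jon44E, from 35.5 ± 1.98 to 41.5 ± 1.60 CPM (log2 0.23 ± 0.05, adjusted p = 0.00626). Jon74E had 568, 421 and 449.9 CPM in set 1, 366, 404 and 375 in set 2, and 358, 341 and 294 in set 3. All its set 1 libraries lay above the rest, and it missed the threshold (set effect adjusted p = 0.105, edgeR).

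**Figure D3:**
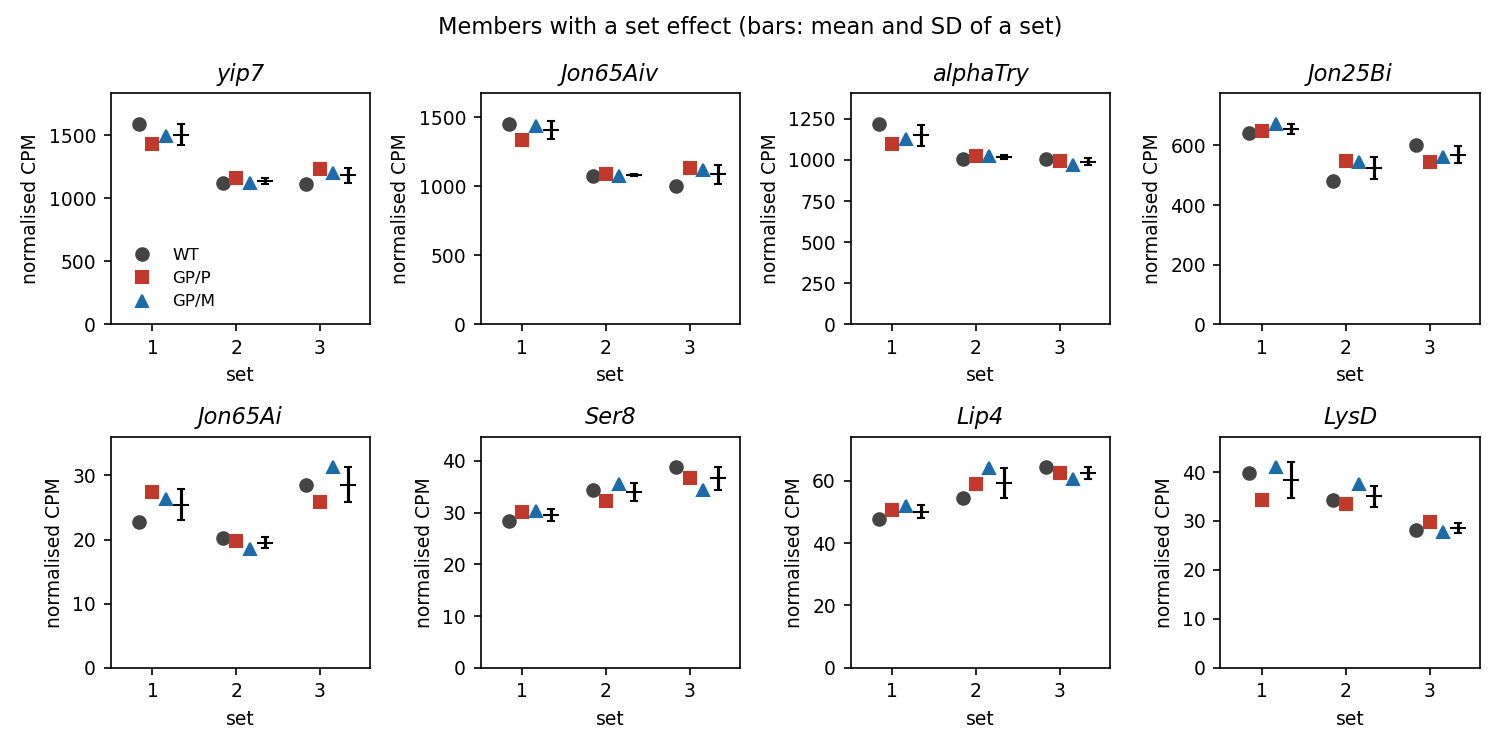
Normalised CPM (vertical axes from 0) in sets 1 to 3 for 8 genes with a set effect; points are WT, GP/P and GP/M libraries and bars the mean and SD of a set. yip7, Jon65Aiv, alphaTry and Jon25Bi are highest in set 1, Jon65Ai is lowest in set 2, Ser8 and Lip4 are lowest in set 1, and LysD is lowest in set 3.

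The remaining 7 trypsins did not pass the test of the set. kappaTry was 83.4 ± 3.44, 87.6 ± 2.16 and 89.0 ± 2.00 CPM in sets 1 to 3 (adjusted p = 0.199, edgeR), and lambdaTry 82.4 ± 2.60, 84.0 ± 3.14 and 87.5 ± 2.22 (adjusted p = 0.288). thetaTry had 74.9 ± 2.68, 71.4 ± 0.698 and 75.3 ± 2.68 CPM (adjusted p = 0.307, edgeR). All 3 differed between sets by less than 10 CPM, and a p that misses the threshold does not show that the sets are equal.

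Of the lipases, Lip4 rose from set 1 and mag did not pass the test. Lip4, a gene related to acid lipases, was 50.1 ± 2.05 CPM in set 1, 59.2 ± 4.85 in set 2 and 62.5 ± 1.93 in set 3, with log2 fold changes of 0.24 ± 0.05 and 0.32 ± 0.05 against set 1 (SE; adjusted p = 0.0155 and 4.27e-04, edgeR). Lip3 was 11.7 ± 2.89, 15.2 ± 0.966 and 19.3 ± 2.26 CPM and missed the threshold in set 3 against set 1 (log2 0.73 ± 0.20, adjusted p = 0.0692, edgeR). mag was 229.6 ± 15.4, 233 ± 10.0 and 227 ± 16.6 CPM (set effect adjusted p = 0.923, edgeR).

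Lysozymes of the LysB to LysE group were low in set 3. LysD had 39.8, 34.2 and 41.0 CPM in set 1, 34.2, 33.4 and 37.5 in set 2, and 28.1, 29.7 and 27.8 in set 3. Every set 3 library lay below every other library. The log2 fold changes of set 3 were -0.42 ± 0.06 against set 1 and -0.29 ± 0.06 against set 2 (SE; adjusted p = 2.15e-04 and 0.0124, edgeR). LysB fell by 0.71 ± 0.16 on the log2 scale in set 3 against set 1 (SE; adjusted p = 0.0302, edgeR), from 17.4 ± 3.15 to 10.6 ± 0.811 CPM, while its set effect over all 3 sets missed the threshold (adjusted p = 0.0671). LysE was 28.6 ± 3.14, 28.1 ± 2.24 and 23.5 ± 3.63 CPM and was not called. These genes are near-identical copies. Counted as 1 feature the group had a log2 fold change of -0.43 in set 3 against set 1 and no longer passed (adjusted p = 0.0573, edgeR). LysP was highest in set 2, with 131, 129 and 128 CPM, and lower in set 3 than in set 2 (log2 -0.15 ± 0.04, adjusted p = 0.0387, edgeR).

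**Figure D4:**
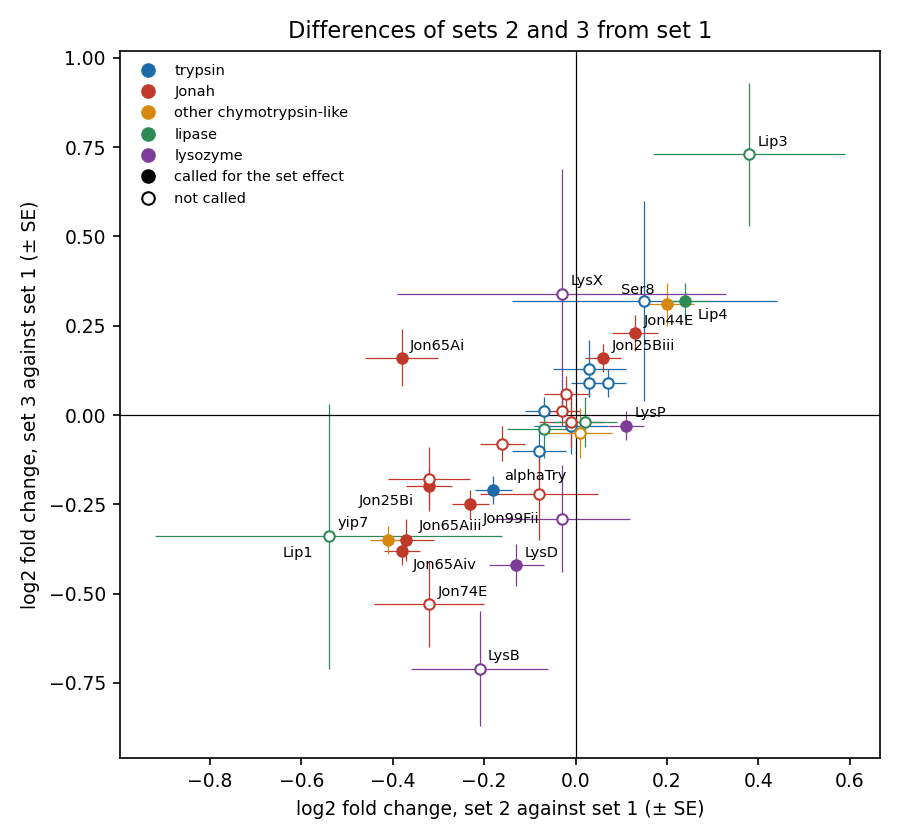
Log2 fold change of set 2 against set 1 (horizontal) and set 3 against set 1 (vertical), each with its SE, for the 35 tested genes; filled points passed the test of the set. Both axes share set 1. yip7, Jon65Aiv, Jon65Aiii, Jon25Bi, Jon99Fii and alphaTry lie below 0 on both axes, Lip4, Ser8 and Jon44E above 0 on both, and Jon65Ai lies below 0 on 1 axis only.

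Counted over the whole group of enzymes, set 2 against set 1 had 8 of 35 genes called, 1 higher and 7 lower, against 2.47% of all genes (1.49% higher and 0.984% lower). Set 3 against set 1 had 12 of 35 called, 4 higher and 8 lower, against 18.7% of all genes (11.7% higher and 6.92% lower). Set 3 against set 2 had 3 of 35 called, Jon65Ai higher and LysD and LysP lower, against 5.92% of all genes (4.31% higher and 1.61% lower). The median log2 fold change of the 35 genes was -0.032, -0.031 and 0.040 in these comparisons, beside 0.006, -0.007 and -0.007 for all genes. The calls of set 2 against set 1 changed when single libraries were left out. Without GP/M 1, 3 were left (yip7, Jon65Aiv and Jon25Bi), 4 without GP/P 2 or without GP/M 2, and 5 without WT 1. Without WT 3, 10 were called. Leaving out a library changes calls over all genes too: for the set effect 2024 were called with every library and 1347 without GP/M 1. For the comparisons of 2 sets that share is not printed here, so these counts stand without a background. yip7 and Jon65Aiv passed in all 9 of these fits. alphaTry lost its call without WT 1, WT 2, GP/P 2 or GP/M 1, and Lip4 without WT 1, GP/P 1, GP/P 2, GP/M 1 or GP/M 2. Jon65Aiii lost it without WT 2, GP/P 2, GP/M 1 or GP/M 2, Jon65Ai without GP/P 1, GP/P 2, GP/M 1 or GP/M 2, Jon99Fii without GP/M 1 or GP/M 2, and Jon25Bi without WT 1. In set 3 against set 1, Jon25Bi lost its call without WT 1, GP/P 1, GP/P 3, GP/M 1 or GP/M 3, and LysB without WT 3, GP/P 3, GP/M 1 or GP/M 3. Jon25Biii lost it without WT 1 or WT 3, and Jon44E without WT 1. In set 3 against set 2, 1 of 3 calls (Jon65Ai) was left without GP/P 2, without GP/M 2 or without GP/M 3, and 5 genes were called without WT 1. LysP lost that call also without WT 2 or WT 3. Its call for the set effect was lost in 6 of 9 such fits (without WT 2, WT 3, GP/P 1, GP/P 2, GP/M 2 or GP/M 3) and in DESeq2. The set effect calls of Jon25Biii and Jon44E were lost without WT 1, WT 3, GP/P 1 or GP/P 3, that of Jon25Bi without WT 1, that of Jon44E also in DESeq2 and that of Jon25Biii with upper quartile scaling.

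Digestive genes of other kinds were counted in the same way, beside 18.7% of all genes called in set 3 against set 1 (11.7% higher and 6.92% lower) and 2.47% in set 2 against set 1. Of 14 amylase and maltase genes, which digest starch and sugars, 7 were called in set 3 against set 1, 6 higher and 1 lower. In set 2 against set 1, 5 of 14 were called, 4 higher and 1 lower. The highest of them, the maltase Mal-A1, was 2628 CPM on average in set 1, 2949 in set 2 and 2994 in set 3 (log2 0.17 and 0.19 against set 1, adjusted p = 0.0111 and 0.00111, edgeR), whereas yip7, Jon65Aiv, Jon65Aiii and alphaTry were highest in set 1. The 1 lower gene was the amylase Amy-p, at 1004, 902 and 917 CPM in sets 1 to 3 (log2 -0.16 and -0.13, adjusted p = 0.0232 and 0.0155, edgeR). The amylase Amy-d was also highest in set 1, at 1018, 931 and 975 CPM (set effect adjusted p = 0.0443, edgeR). Of 12 further serine proteases that were tested, 3 were called lower in set 2 (0.984% of all genes were) and 1 lower in set 3 against set 1, which for set 3 is near the 6.92% of all genes; CG11911 was 149, 126 and 124 CPM in sets 1 to 3 (log2 -0.24 and -0.27, adjusted p = 0.0463 and 0.00646). Of 20 other lipases, 6 were called in set 3 against set 1, 5 higher and 1 lower (median log2 0.107, -0.007 for all genes). In set 2 against set 1, 2 of 20 were called, 2 higher and 0 lower. CG18302 was 37.7, 58.8 and 48.2 CPM in sets 1 to 3 (log2 0.64 in set 2, adjusted p = 2.13e-05, edgeR). Of 11 regulators of digestive enzyme genes, 3 were called higher and none lower in set 3 against set 1. Acid and cysteine proteases (0 of 5), the peritrophic matrix (0 of 6) and other lysozyme-like genes (1 of 9) were counted in that comparison too. The 3 of 11 regulators lie above the 11.7% of all genes called higher. The 0 of 5, 0 of 6 and 1 of 9 lie below the 18.7% called. With so few genes a list, little can be read from these last 4 counts. In set 2 against set 1, 1 of 6 peritrophic matrix genes was called, lower. No regulator, acid or cysteine protease or other lysozyme-like gene was called there. No gene of any of these lists was called in a comparison of the groups, where 0% of all genes were.

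Markers of cell types, among them the enterocytes that make these proteases, also differed between the sets, and their part in the enzyme differences was not tested. Among 6 enterocyte markers, 2 of which (alphaTry and betaTry) are themselves in the enzyme group, 4 were called in set 3 against set 1, 3 higher and 1 lower, where 18.7% of all genes were called. Npc1b, ninaD and Myo31DF were higher, alphaTry was lower (log2 -0.21, adjusted p = 5.89e-04, edgeR), and mex1 and betaTry were not called. The 6 summed to 1337 to 1461 CPM in set 1, 1286 to 1299.8 in set 2 and 1275 to 1329.6 in set 3. alphaTry, at 1052 CPM on average, makes up most of that sum. Npc1b, which serves sterol uptake in the midgut, had 32.4, 31.6 and 33.1 CPM in set 1, 35.8, 34.6 and 36.8 in set 2, and 52.4, 49.1 and 54.0 in set 3. Its set 3 libraries lay far above the others (log2 0.68 against set 1, adjusted p = 1.41e-07, edgeR), the opposite direction to yip7 and Jon65Aiv. The summed level of 7 fat body markers was 2806 to 2867 CPM in set 1, 3060.1 to 3172 in set 2 and 3501 to 4054 in set 3. Against WT the median log2 fold change of these 7 was -0.058 in GP/P and -0.248 in GP/M, with none called. That median rests largely on genes of low level: Fbp2 (0.340 CPM on average), Lsp1gamma (1.05), Yp2 (1.75), Yp1 (2.69) and Yp3 (11.1). Rfabg (2435 CPM) and Lsp2 (773) make up most of the sum. In set 3 against set 1, 3 of these 7 were called higher. Acid-secreting region markers (6 genes) summed to 385 to 416 CPM in set 1, 407 to 420.1 in set 2 and 399 to 416 in set 3, enteroendocrine markers (6 genes) to 141 to 149, 141 to 147 and 149 to 156, and the 6 male accessory gland genes to 2638 to 2959, 2811 to 3002 and 2703 to 2815. CAH2, at 315 CPM on average, makes up most of the acid-secreting sum. Single genes of these lists were called in set 3 against set 1: the proton pump subunit gene Vha14-2 was lower (log2 -0.25, adjusted p = 0.00488, edgeR), pros higher (log2 0.20, adjusted p = 0.0147), npf lower (log2 -0.30, adjusted p = 0.0318) and Acp53Ea lower (log2 -0.11, adjusted p = 0.0388), and no other gene of the 3 lists was.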

How the data were processed

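RNA of whole flies was isolated with Trizol and an RNeasy clean-up, and 9 polyA-selected mRNA libraries were sequenced, per the labels' protocols. Raw read counts per gene, deposited by the authors in 3 pairwise tables, were used. The deposited tables also give the authors' log2 fold changes and p-values, quoted only as the authors' values; 18 columns of normalised values were not used here. The submitters' processing notes name dm3 as the build and Novoalign and DESeq as tools, without versions; how multiply mapped reads and strand were handled is not given in the sources used. No coordinates are printed, since the annotation at hand is of another build.

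Counts of 13140 genes were fitted in edgeR 4.0.16 (R 4.3.3) with TMM scaling, filterByExpr by group and a robust quasi-likelihood F-test over 9 libraries in 3 groups, without a covariate; 12913 genes passed the filter. Sets were tested in a fit with group and set. Calls needed an adjusted p (Benjamini-Hochberg, over all genes tested) under 0.05, and 95% intervals follow from the fits. Intervals and SEs of group comparisons are from the fit without the set unless the block is named. Log2 CPM used a prior count of 2. Alternatives were DESeq2 1.42.0, limma-voom (limma 3.58.1), other size factors, no filter, the replicate block, only the groups compared, no group term, counts summed over genes of 1 name stem and leaving out each library. Scripts were tested on simulated data. By rule, values in every library could be given for the 3 highest genes of a class and for those with the smallest p of a class in a group comparison. The same held for up to 4 of a class by the set test. For some of these genes, such as lambdaTry, betaTry, Lip1, Lip2 and LysE, only ranges, means, intervals or counts are printed. The enzyme genes, the gene lists and these rules were chosen with earlier results of these data known.

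The replicate number was taken to pair libraries, since the labels tie a set to each experiment. Deviations of same-numbered libraries from their group means correlated with r of 0.066 to 0.293 across genes, with 8 of 9 pairs over 0.1, and those of other pairs with r of -0.267 to 0.027. The coefficient of biological variation was 6.56% without and 4.36% with the block. No libraries agreed within counting noise (chi-square per gene of a pair at least 3.29).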

Additional observations from a re-analysis of the deposited data

How the results depend on the processing

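With the replicate block, 0 of 35 enzyme genes were called in each of the 4 comparisons of the groups, as without it; 3, 3, 1 and 5 genes had an unadjusted p under 0.05, beside 6.85%, 3.50%, 4.58% and 5.07% of all genes. No other alternative that was run called an enzyme gene in these comparisons. Leaving out 1 library in turn gave 3 to 10 called genes for set 2 against set 1, 1 to 5 for set 3 against set 2, 10 to 16 for set 3 against set 1 and 11 to 14 for the set effect. For the set effect, 13 enzyme genes and 1347 of all genes were called without GP/M 1. Without WT 2 these were 14 and 2055, beside 13 and 2024 with every library. For the comparisons of 2 sets the share of all genes called in these fits is not printed here, so those counts stand without a background. Counts were also summed over genes of 1 name stem: the Jon25B, Jon65A and Jon99C genes, LysB to LysE, and alphaTry with betaTry. No sequences were compared, and the sums merge genes of unlike level such as Jon65Ai and Jon65Aiv. With these sums, which leave fewer features, 5, 7 and 1 were called in set 2 against set 1, set 3 against set 1 and set 3 against set 2. Neither the share of all genes called nor the number of enzyme features left is printed here for these fits, so these counts stand without a background. DESeq2 called 0 in set 3 against set 2: it gave Jon65Ai and LysD no adjusted p, and LysP missed the threshold with 0.0707. Over all genes the set effect had 2024 calls in edgeR and 1243 in DESeq2; the cause was not tested. Of the 46 log2 fold changes of single genes that were recomputed, leaving out 1 library in turn changed the sign of 6. In GP/P against WT they ranged from -0.007 (without WT 3) to 0.230 for Jon99Fi, from -0.079 to 0.018 (without WT 3) for Lip2 and from -0.331 to 0.110 (without WT 1) for LysB; in both lines against WT, from -0.097 to 0.001 (without WT 3) for Lip2. LysX ranged from -0.006 (without GP/M 3) to 0.659 in GP/M against WT and from -0.622 to 0.039 (without GP/M 3) in GP/P against GP/M. Counts of 5 to 12 per library limit what can be seen of Lip1.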
